A study of Mus musculus with 6 samples.

Results

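The genes of the mouse mitochondrial genome were examined in 6 RNA-seq libraries of primary cortical neurons. All 37 genes whose symbol begins with mt- were taken, out of 55385 genes in the deposited count files. They comprise 13 mRNAs, 2 rRNAs and 22 tRNAs, and the rule reads gene symbols alone. The cells were taken from cortex at embryonic day 18 and cultured for 16 days, and every culture had received 2.5 uM AraC, an inhibitor of DNA synthesis, from day 2 for 24 hours. The 3 libraries labelled activated came from cells exposed to KCl for 5 minutes, washed and left to recover for 30 minutes; one label field states 50 mM KCl and another 50 uM. The 3 libraries labelled control came from cultures left untreated. The comparison asked how RNA levels differed after this brief depolarisation. Nothing in the labels tells whether replicates came from separate cultures or animals, so the p-values cover no more than the spread among these libraries, which may be technical.

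Mitochondrial DNA is a small circle that encodes core subunits of the respiratory chain complexes I, III and IV, of the ATP synthase (complex V), and the rRNAs and tRNAs that the organelle needs to translate them. Both strands are transcribed as long precursors, which are cut into single RNAs mostly at the tRNAs that lie between the coding genes. All other respiratory chain subunits, and the enzymes that transcribe and process mitochondrial RNA, are encoded in the nucleus. Neurons draw most of their ATP from this chain, and depolarisation raises their demand for it.

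Reads assigned to genes numbered 17752711, 27681419 and 32740171 in the libraries labelled activated, and 27881179, 22994946 and 32919975 in those labelled control. The known rapid activity-induced genes went against the labels: 10 of 10 were lower in the libraries labelled activated, with a median log2 fold change of −1.65 and a summed level of 607 to 743 CPM (read counts set to a common library size, scaled by TMM), against 1704 to 1828 CPM in those labelled control. For this reason the groups carry their labels as names, and every direction given here depends on those labels. Markers of other cells also moved with the groups. Of the astrocyte markers, 14 of 15 tested passed as higher and none as lower, and they summed to 1883 to 2328 CPM in activated libraries and 1401 to 1463 CPM in control libraries. Higher calls with none lower were also made for 4 of 7 tested oligodendrocyte markers (78.4 to 90.1 against 59.8 to 65.2 CPM; Gpr17 was at 0) and 8 of 12 endothelial, mural and fibroblast markers (368 to 421 against 236 to 264 CPM). Of 13 microglia markers 8 were called higher, with sums that overlap (72.7 to 139 against 59.6 to 82.0 CPM), but only 1 without activated replicate 3 or without control replicate 3, 4 without control replicate 1, 4 with DESeq2 and 3 with total counts. Inhibitory neuron markers summed to 2418 to 2676 CPM in activated and 3082 to 3185 CPM in control libraries, with 10 of 18 lower, whereas excitatory markers summed to 2529 to 2719 and 2408 to 2529 CPM, with 1 of 16 higher and 9 lower. In bulk RNA, a change in the share of a cell type and a change in RNA per cell cannot be told apart, and the part of these cells in the mitochondrial values was not tested.

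Mitochondrial transcripts took a larger share of the reads in every library labelled activated than in any labelled control. The 37 genes held 25.0%, 23.0% and 21.3% of gene reads in activated replicates 1, 2 and 3, against 17.1%, 14.7% and 16.4% in control replicates 1, 2 and 3. The groups did not overlap, and the means were 23.1% ± 1.84 and 16.1% ± 1.24 (SD, n = 3 each), a difference of 7.02 percentage points. With 3 libraries a group, the exact two-sided permutation test cannot go below 0.1, and it gave p = 0.1 for this share (0.24 after Benjamini-Hochberg adjustment over 12 measures of this kind). Nearly all of these reads came from the rRNAs, in libraries from which rRNA had been depleted. The rRNAs held 22.4%, 20.7% and 19.2% of gene reads in activated libraries and 15.2%, 13.5% and 14.9% in control libraries. The mRNAs held 2.64%, 2.25% and 2.10% in activated libraries and 1.89%, 1.21% and 1.54% in control libraries. The tRNAs, as CPM without further scaling, stood at 54.8, 47.3 and 46.0 in activated libraries, against 34.0, 27.7 and 34.3 in control libraries. Each class was thus higher in all 3 activated libraries, by 1.43-fold for rRNAs, 1.50-fold for mRNAs and 1.54-fold for tRNAs (exact permutation p = 0.1 each). The tRNA value rests mostly on mt-Tw, with 4473 reads over all libraries, against 594 for mt-Tq, the next. Of the 22 tRNA genes, 10 had no read. With both rRNA genes left out of both sums, the remaining members held 2.95% ± 0.407 and 1.82% ± 0.414 of reads, a ratio of 1.62. Over all reads in the files, including unmapped, multimapping and intergenic or intronic ones, the share was 12.3% ± 1.12 and 9.15% ± 0.612 (ratio 1.35). Uniquely counted reads of 354 annotated nuclear rRNA genes, which need not cover the main rRNA repeats, summed to 38.3, 27.5 and 23.9 CPM in activated libraries and 16.9, 19.2 and 20.4 CPM in control libraries; the part of depletion in the mitochondrial rRNA values was not tested.

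**Figure D1:**
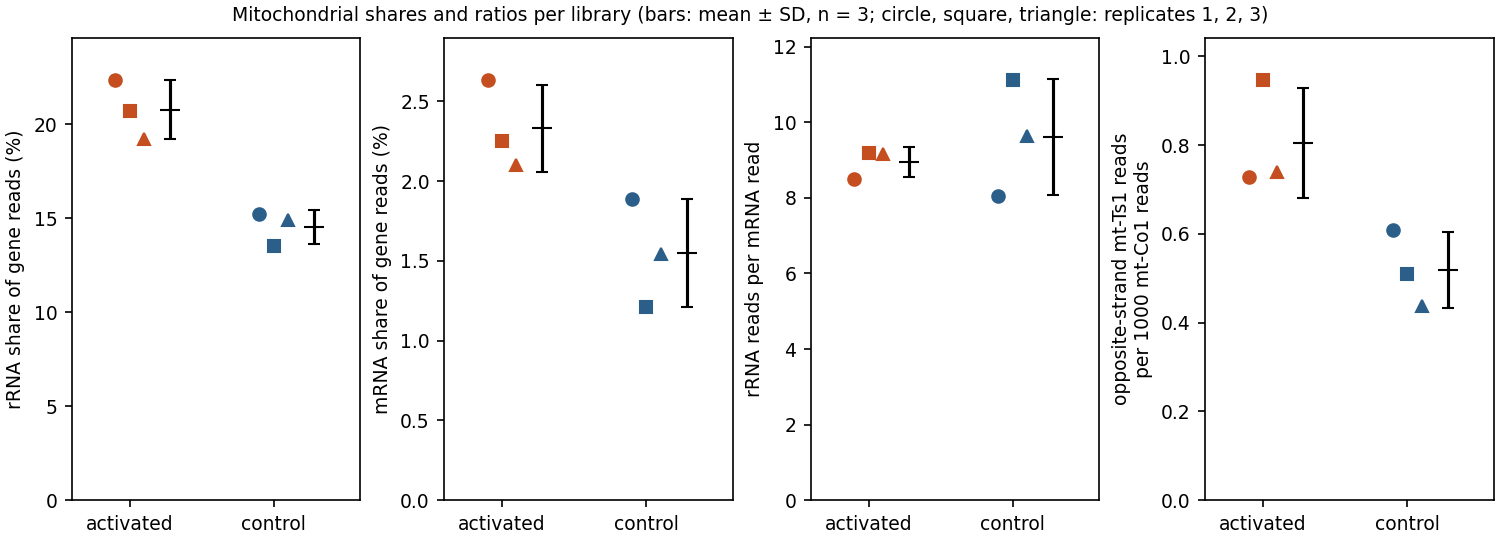
From left to right, the share of gene reads taken by mitochondrial rRNAs and by mitochondrial mRNAs (percent), the rRNA reads per mRNA read, and the reads opposite mt-Ts1 per 1000 mt-Co1 reads, with 1 point per library, bars for mean ± SD (n = 3) and activated left of control. The groups are apart for both shares (mean rRNA share 20.8% and 14.5%) and overlap for rRNA per mRNA. They are also apart for the mt-Ts1 measure (0.805 and 0.519), which was named for the largest opposite-strand fold change of these data. Its reads may include pairs also counted for mt-Co1.

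The genes were then tested singly on their own strand, with edgeR's quasi-likelihood test over all genes and Benjamini-Hochberg adjustment. A low-count filter left 21 of the 37 members. Of these, 13 were higher in the libraries labelled activated, none was lower and 8 did not pass, whereas 36.8% of all 18132 genes tested were called, 16.2% as higher and 20.6% as lower. All 21 log2 fold changes were positive, with a range of 0.20 to 0.89 and a median of 0.58, beside 0.04 for all genes. For 13 of the 21, all activated libraries stood above all control libraries, beside 22.6% of all genes tested (49.0% with either group higher). Besides the 13 called, 3 more members had an unadjusted p below 0.05. The filter, which passes genes with enough counts in 3 libraries, admitted mt-Te through its activated libraries alone, and could have favoured other low members in the same way. These counts therefore describe the members that passed and not all 37.

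**Figure D2:**
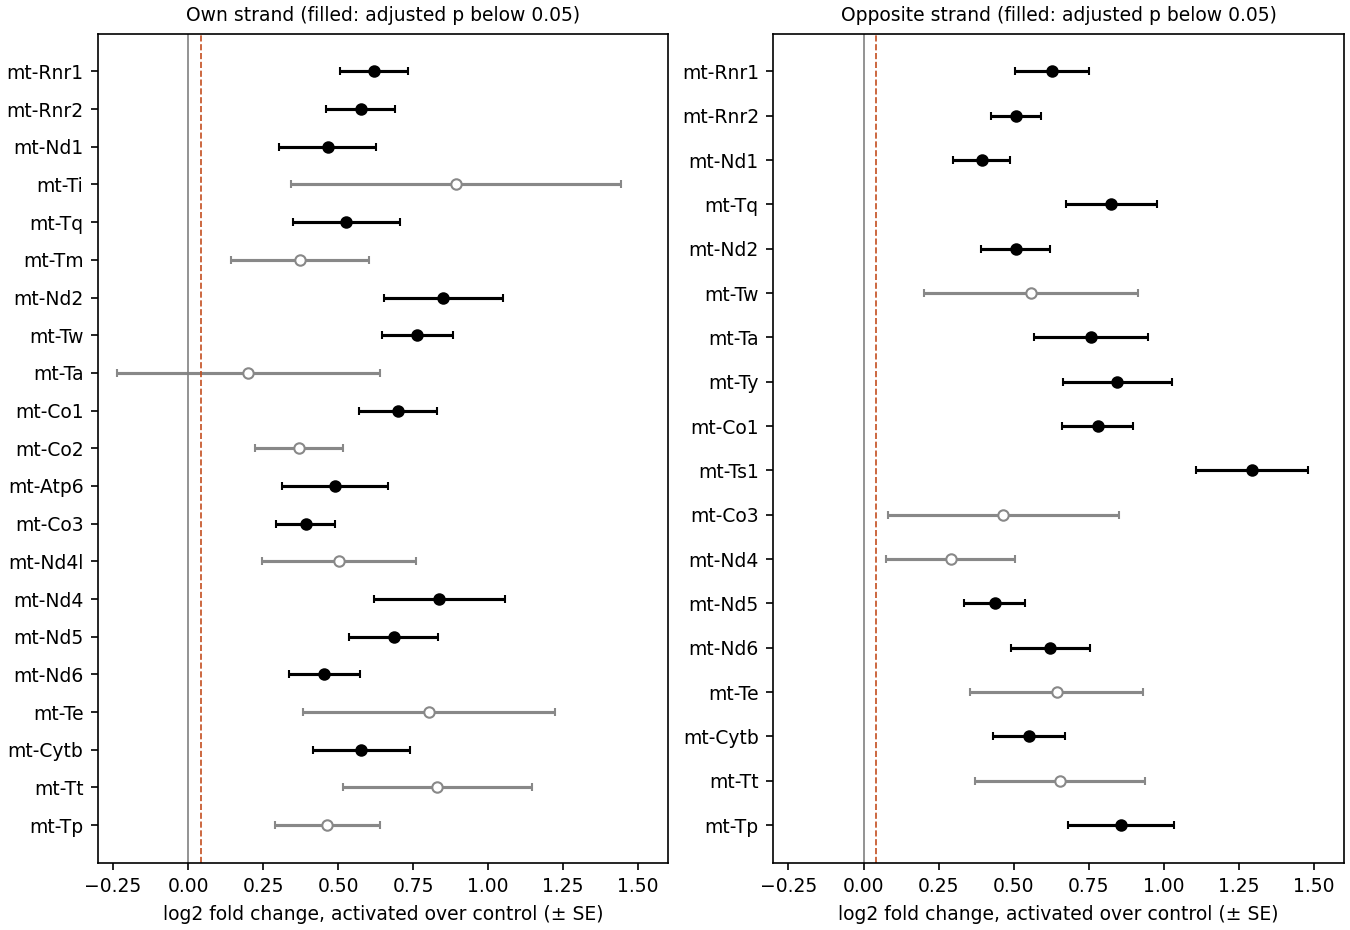
Log2 fold change (activated over control) ± SE of each tested mitochondrial gene on its own strand (left) and of the reads on its opposite strand (right), with filled points for an edgeR adjusted p below 0.05, a gray line at 0 and a dashed line at the median of all genes tested (0.04). All points lie right of both lines, between 0.20 and 0.89 on the left and between 0.29 and 1.29 on the right.

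Levels of the members spanned several orders of magnitude when expressed per length, as CPM per kb of gene. mt-Rnr2 stood highest, at 102979 CPM per kb in activated and 69124 in control libraries, followed by mt-Rnr1 at 52595 and 34230. Among mRNAs, mt-Co1 led with 8511 and 5240 CPM per kb. mt-Cytb (2674 and 1792) and mt-Nd1 (2487 and 1801) came next, then mt-Nd5 (1474 and 916) and mt-Nd6 (1259 and 919), and then mt-Nd2 (999 and 554) and mt-Nd4 (651 and 364). The 6 remaining mRNAs, mt-Co3, mt-Co2, mt-Atp6, mt-Nd4l, mt-Nd3 and mt-Atp8, lay far below, between 0.447 and 31.2 CPM per kb in activated libraries and between 0.283 and 23.6 in control libraries. By mean CPM, not corrected for length, mt-Rnr2 ranked 1st, mt-Rnr1 3rd and mt-Co1 4th of all genes.

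**Figure D3:**
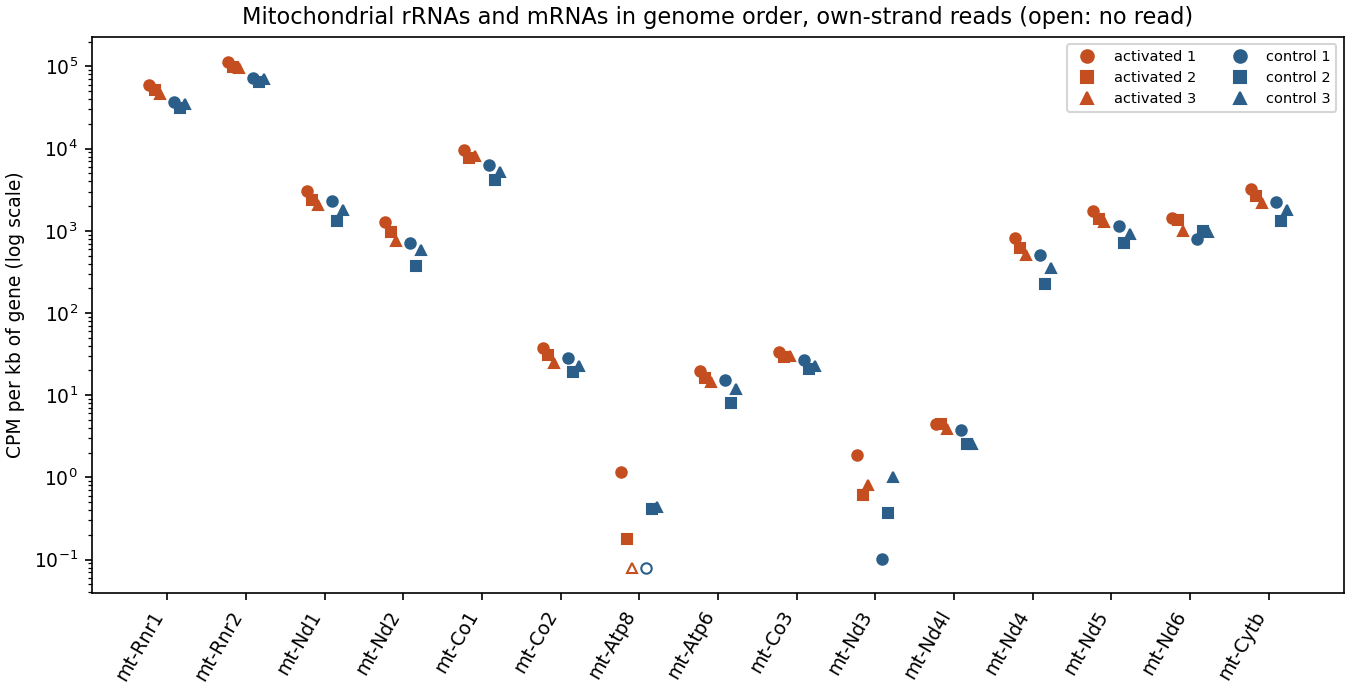
Level of the 13 mitochondrial mRNAs and 2 rRNAs in each library (CPM per kb, log axis), with activated points left of control points for each gene and open points, at the foot of the axis, for libraries with no read. The rRNAs lie at 34230 CPM per kb or more on average, 7 mRNAs between 364 and 8511, and the other 6 at 31.2 or less.

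Of these 6 low mRNAs, 5 have a near-complete copy among nuclear genes. A search of all other GENCODE mouse release 21 transcripts (GRCm38) for exact stretches of 150 bases, the read length, found copies of 97.0% or more of all such stretches of mt-Co2, mt-Atp6, mt-Co3, mt-Nd3 and mt-Nd4l, of 59.2% of those of mt-Nd4 and of 23.6% of those of mt-Co1. No copy was found in an annotated transcript for mt-Nd1, mt-Nd2, mt-Nd5, mt-Nd6, mt-Cytb, mt-Atp8 or either rRNA. Of these copies, 7 are annotated pseudogenes in a row on chromosome 1, minus strand, over 4663 bases from 24611535 to 24616197. In each aligned pair of coding sequences, mt-Co2 and Gm28661 (681 bases), mt-Atp6 and Gm10925 (678), mt-Co3 and Gm28437 (783) and mt-Nd4l and Gm10222 (294) had no difference at all. mt-Nd3 and Gm28438 differed at 1 of 345 bases, T3C, counted from 1 at the first base of annotated mt-Nd3 (mitochondrial base first). The beginning of that pair is shown with the differing base in capitals, and then a stretch of mt-Co3 (bases 61 to 120) with its copy, as an example of the identical pairs.
mt-Nd3: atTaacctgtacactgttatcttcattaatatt
Gm28438: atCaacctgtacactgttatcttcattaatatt
mt-Co3: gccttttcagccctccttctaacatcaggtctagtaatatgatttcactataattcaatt
Gm28437: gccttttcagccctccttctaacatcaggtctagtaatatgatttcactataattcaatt
The files keep multimapping reads apart from genes (5.17% to 5.25% of reads in activated and 5.44% to 6.34% in control libraries), and a read that lies wholly in such a stretch cannot be assigned to either place by its sequence. Levels of these 5 mRNAs, and in part of mt-Nd4 and mt-Co1, are therefore uncertain, and how many reads they lost was not tested. Unannotated nuclear sequence was not searched. mt-Atp8 lies between mt-Co2 and mt-Atp6, and the stretch between the copies of these genes on chromosome 1 carries no annotated copy, so whether it holds one of mt-Atp8 was not tested.

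**Figure D4:**
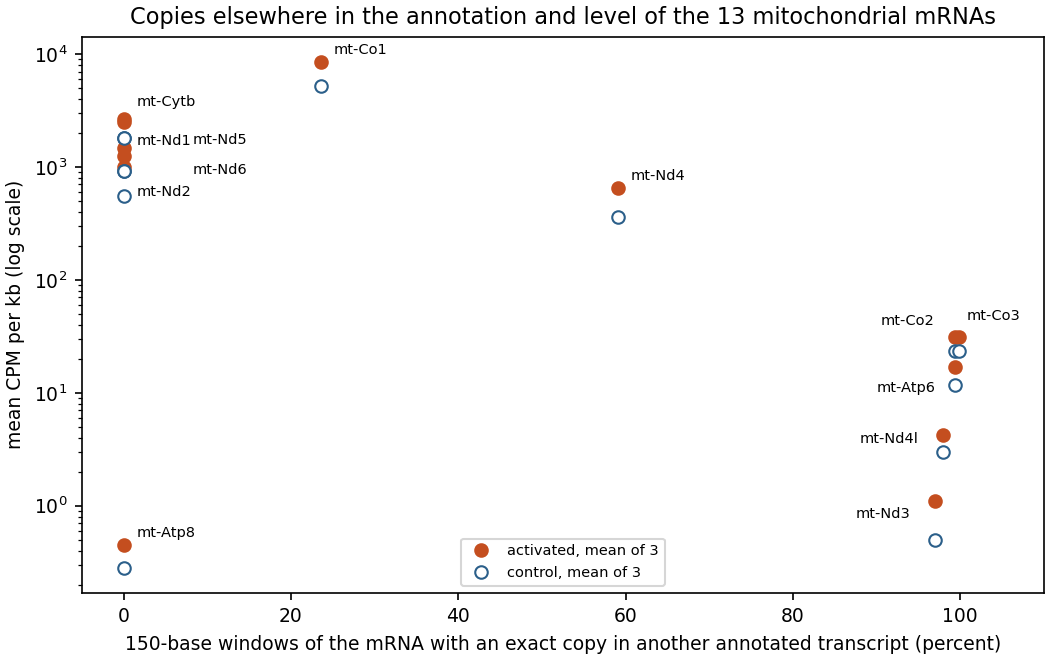
Share of 150-base stretches of each of the 13 mitochondrial mRNAs with an exact copy in another annotated transcript (percent, horizontal axis) against its mean level (CPM per kb, log vertical axis), activated means filled and control means open. The 5 mRNAs at 97.0% or more lie at 31.2 CPM per kb or less, and mt-Atp8 is low with no copy in an annotated transcript.

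Both rRNAs, the RNA core of the small and large subunits of the mitochondrial ribosome, rose in the libraries labelled activated. mt-Rnr1 (ENSMUSG00000064337.1, mitochondrial chromosome, 70 to 1024, plus strand) had 57385, 48720 and 44580 CPM in activated and 35085, 29861 and 33124 CPM in control libraries. The groups were clearly apart, with a log2 fold change of 0.62 and a standard error (SE, given after ± for each fold change) of 0.11 (edgeR adjusted p = 0.000927). mt-Rnr2 (ENSMUSG00000064339.1, 1094 to 2675, plus strand) had 178767, 157219 and 152750 CPM in activated and 114844, 101497 and 111720 CPM in control libraries. Its groups did not overlap either, with a log2 fold change of 0.58 ± 0.12 (edgeR adjusted p = 0.00169). mt-Rnr2 gave 3.12, 3.23 and 3.43 reads for each mt-Rnr1 read in activated libraries and 3.27, 3.40 and 3.37 in control libraries, so the ratio of the rRNAs overlapped between groups (exact permutation p = 0.5). The rRNA reads per mRNA read were 8.49, 9.20 and 9.15 in activated libraries and 8.06, 11.1 and 9.65 in control libraries, which also overlap (exact permutation p = 0.5).

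Complex I, the NADH dehydrogenase at which electrons enter the chain, has 7 subunits encoded here. Of the 6 of these mRNAs that were tested, 5 rose. mt-Nd2 (3914 to 4951, plus strand) had 1337, 995 and 779 CPM in activated and 728, 383 and 614 CPM in control libraries. Every activated library was above every control library, although activated replicate 3 was near control replicate 1, and the log2 fold change was 0.85 ± 0.20 (edgeR adjusted p = 0.00451). mt-Nd5 (11742 to 13565, plus strand) had 3217, 2517 and 2329 CPM in activated and 2078, 1282 and 1653 CPM in control libraries. Its groups were apart, with a log2 fold change of 0.69 ± 0.15 (edgeR adjusted p = 0.00269). mt-Nd4 (10167 to 11544, plus strand) had 1122, 862 and 705 CPM in activated and 705, 310 and 487 CPM in control libraries. Activated replicate 3 and control replicate 1 met, and the log2 fold change was 0.84 ± 0.22 (edgeR adjusted p = 0.0085, and 0.0715 with DESeq2). mt-Nd1 (2751 to 3707, plus strand) had 2883, 2292 and 1966 CPM in activated and 2180, 1268 and 1723 CPM in control libraries. The groups overlapped, since control replicate 1 was above activated replicate 3, and the log2 fold change of 0.47 ± 0.16 (edgeR adjusted p = 0.0362) did not pass without any of activated replicate 1 (0.30), activated replicate 2 (0.49), control replicate 2 (0.30) or control replicate 3 (0.47). Nor did it pass with total counts (0.39, adjusted p = 0.0596) or with DESeq2 (adjusted p = 0.176).

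mt-Nd6 is the only mRNA of the 13 on the minus strand (13552 to 14070), and so is transcribed from the other promoter. It had 744, 699 and 518 CPM in activated and 409, 518 and 505 CPM in control libraries. Activated replicate 3 was barely above control replicate 2, and the log2 fold change was 0.45 ± 0.12 (edgeR adjusted p = 0.00858). Control replicate 2 was the lowest library for every tested plus-strand mRNA but the highest of the control libraries for mt-Nd6. For each 100 reads of the 12 plus-strand mRNAs, mt-Nd6 gave 2.75, 3.22 and 2.46 reads in activated and 2.25, 4.59 and 3.48 reads in control libraries, which overlap widely (exact permutation p = 0.5). mt-Nd4l (9877 to 10173, plus strand) had only 18 to 37 reads a library, at 1.31, 1.33 and 1.16 CPM in activated and 1.13, 0.761 and 0.768 CPM in control libraries. The groups did not overlap, but its log2 fold change of 0.50 ± 0.26 did not pass (edgeR adjusted p = 0.137). mt-Nd3 (9459 to 9806, plus strand) had 1 to 12 reads a library and was not tested; it stood at 0.654, 0.215 and 0.282 CPM in activated and 0.0353, 0.127 and 0.354 CPM in control libraries.

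mt-Cytb (14145 to 15288, plus strand) encodes cytochrome b, the only complex III subunit made in the organelle. It had 3673, 3000 and 2507 CPM in activated and 2591, 1521 and 2036 CPM in control libraries. Control replicate 1 lay above activated replicate 3, and the log2 fold change was 0.58 ± 0.16 (edgeR adjusted p = 0.0122). That call did not hold without activated replicate 1 or without control replicate 2 (0.42 in each), nor with DESeq2 (adjusted p = 0.0777).

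Complex IV, cytochrome c oxidase, has its 3 core subunits encoded here, of which 2 rose. mt-Co1 (5328 to 6872, plus strand), the subunit that binds oxygen, had 14778, 11969 and 12703 CPM in activated and 9850, 6487 and 7951 CPM in control libraries. The groups were apart, with a log2 fold change of 0.70 ± 0.13 (edgeR adjusted p = 0.00106). mt-Co1 alone gave 53.1%, 53.5% and 58.9% of mitochondrial mRNA reads in activated and 53.0%, 55.0% and 53.0% in control libraries, which overlap (exact permutation p = 0.5). mt-Co3 (8607 to 9390, plus strand) had 26.5, 23.1 and 23.8 CPM in activated and 21.3, 16.5 and 17.8 CPM in control libraries. Its groups did not overlap, with a log2 fold change of 0.39 ± 0.10 (edgeR adjusted p = 0.00695). mt-Co2 (7013 to 7696, plus strand), which receives electrons from cytochrome c, had 25.3, 21.0 and 17.0 CPM in activated and 19.6, 13.1 and 15.7 CPM in control libraries. The groups overlapped, and the log2 fold change of 0.37 ± 0.15 did not pass (edgeR adjusted p = 0.0616), although it did with DESeq2 (adjusted p = 0.0354), without activated replicate 3 (0.50) and without control replicate 1 (0.54); it was 0.23 without activated replicate 1.

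Of the ATP synthase, both membrane-sector subunits encoded here were measured weakly. mt-Atp6 (7927 to 8607, plus strand), part of the proton channel, had 13.4, 10.9 and 9.96 CPM in activated and 10.3, 5.50 and 8.18 CPM in control libraries. The groups overlapped by a small margin, and the log2 fold change was 0.49 ± 0.18 (edgeR adjusted p = 0.0434). This call was lost in 7 of the alternatives run, among them scaling by total counts (0.42) and leaving out control replicate 2 (0.31). mt-Atp8 (7766 to 7969, plus strand), an accessory subunit, had 0 to 4 reads a library, was at 0 in activated replicate 3 and control replicate 1, and was not tested. A count of 0 allows up to 3 reads in a library, as counting error only.

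The chromosome 1 copies of mt-Co3, mt-Atp6 and mt-Co2 had levels of the same order as those mRNAs. Not all copies did. Gm28438 averaged 1.32 CPM in activated and 0.947 CPM in control libraries, against 0.384 and 0.172 CPM for mt-Nd3. A second copy of mt-Co2, Gm13341, averaged 1.15 and 0.526 CPM, far below mt-Co2 at 21.1 and 16.1 CPM. Gm28437, the copy of mt-Co3, averaged 24.8 ± 3.33 CPM in activated and 16.3 ± 5.36 CPM in control libraries (SD, n = 3 each), with a log2 fold change of 0.59 ± 0.17 (edgeR adjusted p = 0.0149). Gm10925, the copy of mt-Atp6, averaged 16.1 ± 4.45 and 9.05 ± 4.05 CPM, with a log2 fold change of 0.79 ± 0.25 (edgeR adjusted p = 0.0215). Gm28661, the copy of mt-Co2, averaged 20.3 ± 4.67 and 16.2 ± 5.47 CPM and did not pass (0.30 ± 0.20, edgeR adjusted p = 0.247). Pairs that lie wholly in an identical stretch are kept apart as multimapping, so these values count only pairs that the aligner placed uniquely. None of them can therefore be taken as the full level of a gene or of its copy. How many pairs were lost, and whether the counted ones were placed at the right gene, was not tested.

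Mitochondrial tRNAs were counted at only 12 of the 22 genes, and 8 passed the filter. Of these, 2 rose, mt-Tw and mt-Tq, which carry tryptophan and glutamine. Their sequences (GENCODE release 21 transcripts, GRCm38, 5′ to 3′, own strand) are shown with the anticodon in capitals, and with them mt-Ts1 (serine) and mt-Tp (proline), whose opposite strand is described further on. The genes lie on the mitochondrial chromosome at 4950 to 5016 on the plus strand (mt-Tw) and, on the minus strand, at 3772 to 3842 (mt-Tq), 6870 to 6938 (mt-Ts1) and 15356 to 15422 (mt-Tp).
mt-Tw: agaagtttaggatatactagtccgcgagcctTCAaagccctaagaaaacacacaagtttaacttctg
mt-Tq: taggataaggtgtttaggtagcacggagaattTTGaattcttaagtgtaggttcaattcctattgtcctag
mt-Ts1: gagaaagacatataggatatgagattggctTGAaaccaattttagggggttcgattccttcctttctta
mt-Tp: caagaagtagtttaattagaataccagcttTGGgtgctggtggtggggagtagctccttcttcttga
The tRNA genes are 59 to 75 bases long, shorter than one sequenced read, so a read pair at a tRNA gene usually extends beyond it and does not measure the mature tRNA alone.

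mt-Tw had 40.7, 31.6 and 34.5 CPM in activated and 23.5, 16.5 and 22.1 CPM in control libraries. The groups were well apart, and the log2 fold change of 0.76 ± 0.12 had the smallest adjusted p of all members on their own strand (edgeR adjusted p = 0.000281). mt-Tq had 4.64, 4.38 and 4.10 CPM in activated and 2.96, 2.33 and 3.66 CPM in control libraries. Its groups did not overlap, with a log2 fold change of 0.53 ± 0.18 (edgeR adjusted p = 0.0313), but the call was lost with scaling by total counts (0.46) and without any of 4 libraries, activated replicates 1 (0.49) and 2 (0.52) and control replicates 1 (0.53) and 2 (0.40).

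Of the 6 tested tRNAs that did not pass, mt-Tp (proline) had 3.86, 3.98 and 3.41 CPM in activated and 2.36, 2.50 and 3.22 CPM in control libraries, with a log2 fold change of 0.46 (edgeR adjusted p = 0.051). mt-Tt (threonine) had 0.713, 0.861 and 0.846 CPM in activated and 0.353, 0.634 and 0.413 CPM in control libraries (0.83, adjusted p = 0.0523). For both, every activated library lay above every control library. mt-Tp passed without activated replicate 3 (0.53) or control replicate 3 (0.63), and mt-Tt without control replicate 2 (1.09). mt-Te (glutamate) had 0.595, 0.395 and 0.407 CPM in activated and 0.353, 0.127 and 0.266 CPM in control libraries, also without overlap (0.80, edgeR adjusted p = 0.147). These were 10, 11 and 13 reads in activated and 10, 3 and 9 reads in control libraries. Scaled to library size, only the activated libraries reached the filter's minimum, so the direction and lack of overlap of mt-Te add no support. mt-Ti (isoleucine) had 1.78, 1.26 and 0.251 CPM in activated and 0.247, 0.508 and 0.827 CPM in control libraries. mt-Tm (methionine) had 4.88, 3.05 and 2.91 CPM in activated and 2.89, 3.30 and 2.04 CPM in control libraries. mt-Ta (alanine) had 0.297, 0.718 and 0.282 CPM in activated and 0.247, 0.465 and 0.443 CPM in control libraries. The groups of these 3 overlapped, with log2 fold changes of 0.89, 0.37 and 0.20 (edgeR adjusted p = 0.216, 0.215 and 0.74). Single libraries moved these values: mt-Ti was 0.43 without activated replicate 1 and 0.58 without control replicate 1, 1.46 without control replicate 3, and 1.44 without activated replicate 3, where it passed (edgeR adjusted p = 0.00578). mt-Tm was 0.13 without activated replicate 1 and 0.19 without control replicate 3, and mt-Ta ranged from −0.41 to 0.51.

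Of the 14 untested tRNAs, 10 had no read in any library, mt-Tl1 had up to 2, mt-Tc up to 1, mt-Ty 3 to 7 and mt-Ts1 up to 11. Whether a tRNA gene had reads went with the room around it, a distance chosen after the values were seen. All 10 tRNA genes with a same-strand neighbour within 33 bases on both sides had at most 2 reads in any library, and 8 of them had none. Of the 12 with more room, 10 had reads, but mt-Tf and mt-Td did not. mt-Td, mt-Tk, mt-Tg and mt-Tr, all without reads, lie between mt-Co1 and mt-Nd4, among the genes with copies on chromosome 1. Whether reads over these tRNAs were kept apart as multimapping was not tested. mt-Tw, the highest, overlaps the end of mt-Nd2 by 2 bases but has 311 bases before the next gene on its strand, mt-Co1. Pairs that touch more than one gene are counted by the aligner as ambiguous and not for either gene (0.736% to 0.859% of reads in activated and 0.908% to 0.977% in control libraries), so these counts depend on the neighbours as well as on the RNA.

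The opposite strand of the members was counted too. Over 1135 nuclear coding genes with no annotated overlapping gene and at least 1000 reads in each library, the median share of opposite-strand reads was 0.108% to 0.131% in activated and 0.109% to 0.118% in control libraries, a description of how well the libraries kept strand. Both rRNAs were below this, with mt-Rnr1 at 0.0292% to 0.0345% in activated and 0.0245% to 0.0354% in control libraries and mt-Rnr2 at 0.0158% to 0.0167% and 0.0154% to 0.0190%. mt-Nd5 and mt-Nd6, whose ends overlap on opposite strands, were far above it. The opposite strand held 24.5%, 27.1% and 24.4% of the reads over mt-Nd5 in activated and 23.3%, 36.2% and 28.5% in control libraries. Over mt-Nd6 it held 38.5%, 31.1% and 35.5% in activated and 35.4%, 30.8% and 31.9% in control libraries. The groups overlapped for both shares (exact permutation p = 0.4 each). mt-Nd2 stood at 6.19%, 7.32% and 8.07% in activated and 5.82%, 14.5% and 8.22% in control libraries, and mt-Nd4 at 5.00%, 4.75% and 6.45% in activated and 8.11%, 9.25% and 5.57% in control libraries. mt-Co1 was nearer to the nuclear genes, at 0.601%, 0.668% and 0.709% in activated and 0.562%, 0.889% and 0.480% in control libraries (exact permutation p = 0.9). A read over mt-Nd5 on the minus strand may belong to the mt-Nd6 precursor, which these counts cannot separate.

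**Figure D5:**
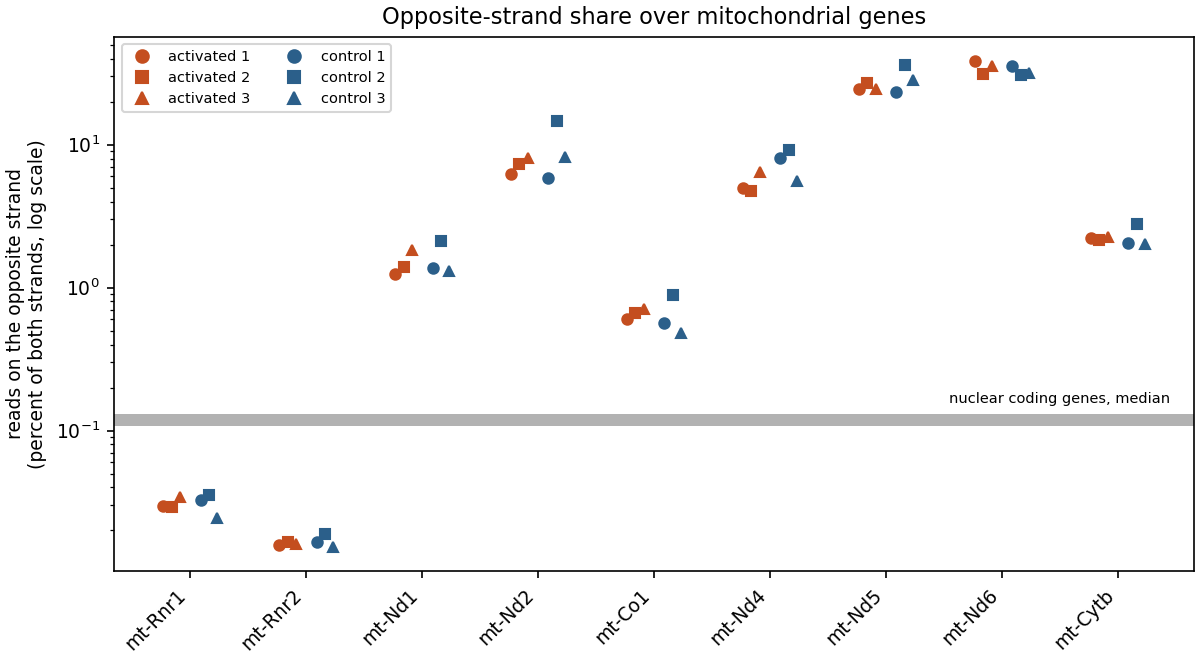
Share of reads on the opposite strand (percent, log axis) for 9 mitochondrial genes in each library, activated points left of control points, with a gray band for the range over libraries of the median of nuclear coding genes (0.108% to 0.131%). mt-Nd6 and mt-Nd5 lie between 23.3% and 38.5%, and the rRNAs below the band.

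In the same kind of fit with 37 opposite-strand rows added to the table, 18 rows passed the filter. A pair can be counted opposite one gene and again for a neighbour on its own strand, so these rows are not separate from the own-strand rows. Opposite mt-Ts1, mt-Tq and mt-Ty, for example, lay 78 to 740 pairs a library. With strand ignored these 3 genes had 0, since all such pairs also touched another gene. The counts of calls on the 2 strands therefore do not support each other. The 18 rows are described as they stand. Of these, 13 were higher in the libraries labelled activated and none lower, and 5 did not pass, whereas 16.3% of all 18150 rows tested were higher and 20.5% lower. All 18 fold changes were positive, from 0.29 to 1.29 on the log2 scale, with a median of 0.62, and 15 had an unadjusted p below 0.05. The largest fold change was over mt-Ts1, whose gene overlaps the last 3 bases of mt-Co1 and runs the other way. Its opposite strand, which is the strand of mt-Co1, had 10.8, 11.3 and 9.40 CPM in activated and 6.0, 3.30 and 3.48 CPM in control libraries. The groups were far apart, with a log2 fold change of 1.29 ± 0.19 (edgeR adjusted p = 0.000187). With strand ignored, mt-Ts1 had 0 reads in every library, so each of these pairs also touched another gene. Pairs of mt-Co1 that run past its end may be among them and so stand in both parts of a ratio to mt-Co1. How many do was not tested, and the reads need not come from a separate RNA. Set against mt-Co1 itself, the reads opposite mt-Ts1 came to 0.728, 0.947 and 0.740 for each 1000 mt-Co1 reads in activated libraries. In control libraries they came to 0.609, 0.509 and 0.438. The groups did not overlap, with a ratio of means of 1.55 (exact permutation p = 0.1, adjusted p = 0.24 over the 12 measures). mt-Ts1 is named here for its largest fold change, so this ratio, from the same libraries, adds no separate support. On either side of mt-Ts1, copies on chromosome 1 cover mt-Co1 bases 1067 to 1545 and nearly all of mt-Co2. How many reads over mt-Ts1 were kept apart as multimapping was not tested.

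Reads over the other minus-strand tRNAs also lay mostly on the opposite strand. That strand held 84.5% to 88.3% of reads over mt-Tq in activated and 80.0% to 86.0% in control libraries, 87.6% to 90.9% and 82.2% to 90.2% over mt-Tp, and 96.2% to 97.6% and 95.7% to 97.8% over mt-Ty. Over mt-Tq it had 35.0, 23.8 and 23.2 CPM in activated and 18.2, 12.7 and 14.7 CPM in control libraries (log2 fold change 0.82 ± 0.15, edgeR adjusted p = 0.000959). Over mt-Tp, near the end of the coding part of the genome, it had 38.8, 28.1 and 28.1 CPM in activated and 21.9, 11.5 and 18.2 CPM in control libraries (0.86 ± 0.18, edgeR adjusted p = 0.00195). Neither pair of groups overlapped. mt-Ty (0.85, tyrosine) and mt-Ta (0.76) also passed. Over coding genes, the opposite strand rose for mt-Co1 (0.78), mt-Nd6 (0.62, and 0.38 without activated replicate 1), mt-Cytb (0.55), mt-Nd2 (0.51), mt-Nd5 (0.44) and mt-Nd1 (0.39), and over the rRNAs by 0.63 for mt-Rnr1 and 0.51 for mt-Rnr2. The own-strand fold changes of these rRNAs were 0.62 and 0.58, and their opposite-strand shares lay below the median of nuclear genes. Whether their opposite-strand reads were own-strand reads assigned to the wrong strand was not tested. The same limit holds for their part in the 13 calls. The opposite strand did not pass for mt-Nd4 (0.29 ± 0.22, edgeR adjusted p = 0.305) or for mt-Co3, mt-Tw, mt-Te and mt-Tt (0.47 to 0.65). Without control replicate 1 the opposite strand of mt-Nd4 passed (0.74, edgeR adjusted p = 0.000647), whereas it was 0.16 without activated replicate 1, 0.15 without control replicate 2 and 0.09 without control replicate 3. mt-Te passed without activated replicate 3 (0.84) and was 0.29 without activated replicate 1.

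To ask whether members changed relative to each other, each gene was also fitted against the summed reads of the 13 mRNAs, so that a log2 fold change of 0 means a constant ratio to that sum. None of the 21 members was called by edgeR, and none had an unadjusted p below 0.05. Of all genes, 48.2% were called on this scale, 48.1% as lower and 0.11% as higher, with a median of −0.63. That sum was itself higher in the libraries labelled activated, so other genes fall on this scale by construction. The estimated spread between libraries (biological coefficient of variation) was 0.207 in this fit and 0.0762 in the main fit, so smaller changes are harder to detect. Ratios of the mRNAs differed by −0.28 (mt-Nd6 and mt-Co2) to 0.21 (mt-Nd4) on the log2 scale. mt-Nd6, the minus-strand mRNA, was at −0.28 ± 0.25, mt-Rnr1 at −0.07 ± 0.20, mt-Rnr2 at −0.11 ± 0.18 and mt-Co1 at 0.04 ± 0.22. A p that misses the threshold does not show that a ratio was constant. The 13 mRNAs are part of their own denominator, of which mt-Co1 supplies 53.0% to 58.9%.

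The nuclear genes that serve mitochondrial DNA were described by 3 lists, of which 62 genes were tested: 3 were higher, 16 lower and 43 not called, beside 16.2% higher and 20.6% lower of all genes tested. The share that was lower is near that of all genes, so the decreases named next describe single genes and not the lists. For mtDNA transcription, 1 of 16 was higher and 4 lower, with a median log2 fold change of −0.11. The 4 were Ppargc1a, a coactivator of mitochondrial biogenesis, at 48.3 ± 2.18 CPM in activated and 72.3 ± 5.85 CPM in control libraries (−0.59 ± 0.07, edgeR adjusted p = 6.12e-05), Tfam, the factor that packages mtDNA and starts its transcription, at 13.5 ± 0.445 and 19.3 ± 1.57 CPM (−0.51 ± 0.09, edgeR adjusted p = 0.000661), Mrpl12, a ribosomal protein that also binds the mitochondrial RNA polymerase (−0.50), and Esrra, a nuclear receptor that regulates respiratory genes (−0.33). For replication and maintenance, 1 of 14 was higher and 4 lower, with a median of 0.01. The 4 were the nucleases Exog (−0.56) and Endog (−0.51) and the nucleotide suppliers Rrm2b (−0.35) and Tk2 (−0.27). For RNA processing, modification and turnover, 1 of 32 was higher and 8 lower, with a median of −0.15; Grsf1, of the mitochondrial RNA granules, was at −0.51 ± 0.07 (edgeR adjusted p = 9.76e-05), followed by Pde12, which removes poly(A) tails (−0.47), Lrpprc, which stabilises mitochondrial mRNAs (−0.29), and Trnt1, which adds CCA to tRNAs (−0.31). The 3 higher genes, named after their values were seen, were Mterf1b (0.84), Ssbp1, which binds single-stranded mtDNA (0.30), and Pnpt1, an exoribonuclease (0.29). Scaling to summed neuron markers shifted the all-gene median by 0.12 and left 6 higher and 6 lower over the 3 lists, with a median of 0.02 for transcription. Without control replicate 2, 10 were lower and none higher, and none was higher without activated replicate 1, activated replicate 2 or control replicate 3 either (edgeR).

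Most genes taken by symbol as nuclear-encoded subunits of the same complexes fell, and a symbol need not mark a structural subunit of that complex. Of 77 tested, 54 were lower in the libraries labelled activated and 2 higher, beside 20.6% lower for all genes (35 lower and 2 higher with neuron marker scaling). Complex I had 28 of 37 lower and 1 higher, with a median log2 fold change of −0.33, led by Ndufv2 at 52.4 ± 1.65 CPM in activated and 75.5 ± 3.72 CPM in control libraries (−0.52 ± 0.06), with Ndufb10 (−0.54) and Ndufv1 (−0.45). The higher one, named after its value was seen, was Ndufa4l2 (1.03). It was placed in complex I by its symbol alone, as was Ndufa4, which was among the lower. Complex III had 8 of 9 lower, with a median of −0.35, led by Uqcrfs1, the Rieske iron-sulfur protein, at 27.7 ± 1.54 and 45.2 ± 7.26 CPM (−0.70 ± 0.10), with Uqcrc1 (−0.48), Uqcrc2 (−0.37) and Cyc1 (−0.36). Complex IV had 6 of 14 lower and 1 higher, with a median of −0.17; Cox5a was at 44.9 ± 0.822 and 66.1 ± 4.01 CPM (−0.56 ± 0.06), Cox7a2l at −0.32 and Cox7b at −0.30, and Cox6b2, known from testis, rose (7.27 ± 1.14 against 4.17 ± 0.378 CPM, 0.81 ± 0.15). Complex V had 12 of 17 lower and none higher, with a median of −0.41, led by Atp5a1, the catalytic-sector alpha subunit, at 355 ± 19.3 and 538 ± 23.2 CPM (−0.60 ± 0.07), with Atp5g3 (−0.59), Atp5g1 (−0.52) and Atp5f1 (−0.50). The edgeR adjusted p of the subunit genes named here was 0.00375 or less, except for Ndufa4l2 (0.0176). The mitochondrially encoded subunits of the same complexes stood between 0.37 and 0.85. The difference between nuclear and mitochondrial subunits was not tested as such, and counts of both depend on the same 6 libraries and their scaling.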

How the data were processed

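Strand-specific, rRNA-depleted total RNA was sequenced as paired 150-base reads, per the labels' protocols. The submitters' processing notes name STAR 2.5.2b, mm10 and edgeR; they name no annotation release or parameters. The deposited files hold raw counts per gene, unstranded and by strand. Reads on the gene's own strand were used. Lines naming no gene stayed out of library sizes; reads outside annotated exons made up 25.1% to 37.3% and unmapped reads 7.49% to 9.88% of all reads. Names and coordinates came from GENCODE mouse release 21 (GRCm38), which matched all 37 members.

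Low counts were removed by filterByExpr (counts of at least 10, totals of at least 15), and the rest scaled by TMM and tested with edgeR 4.0.16 (quasi-likelihood, threshold 0.05); DESeq2 1.42.0 was an alternative. Each SE was derived as |log2 fold change| / √F. CPM values were computed here from the deposited counts, scaled by TMM. Whole-library measures were compared by exact permutation. Other scalings (among them summed neuron markers), no filter, unstranded counts, a replicate block and each library left out were tried as alternatives. Scripts were tested on simulated data. Every member is accounted for, and each nuclear list names its 4 genes with the smallest p, except for a gene that is not reported here. Members, lists and tests were chosen with earlier results of these data known.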

Additional observations from a re-analysis of the deposited data

How the results depend on the processing

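The number of members higher in the libraries labelled activated (13 on each strand) stayed between 9 and 16 on their own strand and between 13 and 15 on the opposite strand in all alternatives run, with none lower. The 2 strands are not separate evidence, since a pair can be counted on both. On the own strand, calls held under all 14 alternatives for mt-Co1, mt-Co3, mt-Nd2, mt-Nd5, mt-Nd6, mt-Rnr1 and mt-Rnr2. The call of mt-Tw held in the 13 alternatives that tested it, but with strand ignored it had 0 reads and could not be tested. On the opposite strand, calls held under every alternative run there for 13 of 13. These include both rRNAs, whose opposite-strand shares lay below the median of nuclear genes. The difference in share of 7.02 points was 1.13 with rRNA genes left out and 3.19 over all reads. Among nuclear genes of mitochondrial gene expression, 3 were higher in the main comparison. That was 1 with total counts, TMM without mitochondrial genes, DESeq2, unstranded counts or the replicate block, 6 with neuron marker scaling, 2 with no low-count filter, and 0 to 4 with single libraries left out. The 16 lower were 6 with neuron marker scaling and 10 to 17 with single libraries left out. Of nuclear-encoded subunits, 54 were lower, against 35 with neuron marker scaling; the 2 higher were 1 with unstranded counts and 1 to 2 with single libraries left out.

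The labels do not say whether the replicate number pairs the libraries. Same-numbered libraries had correlations of −0.02, −0.23 and −0.28 in their deviations from the group means. Among libraries of unlike number, activated replicate 3 with control replicate 2 had 0.26, and activated replicate 2 with control replicate 3 had 0.22. Deviations from a mean of 3 libraries are tied to each other, so these values cannot settle whether libraries were paired. With the replicate number as a block, 13 members were higher on their own strand and 14 on the opposite strand. In that fit mt-Tq did not pass (0.55, adjusted p = 0.0548) and mt-Co2 did (0.38), as did the opposite strand of mt-Nd4 (0.37); 1 microglia marker was higher, against 8 without the block.

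The only directions that turned were of fold changes that did not pass the test. With single libraries left out, mt-Ta on its own strand ranged from −0.41 to 0.51. Relative to the mRNA total, 1 member was lower without control replicate 1 (mt-Nd6, −0.50), against none otherwise. On that scale, unstranded counts gave −0.028 for mt-Nd5 and 0.23 for mt-Tp, and all 37 members as the denominator gave 0.024 for mt-Rnr1. Ratios with single libraries left out ran from −0.0092 to 0.067 for mt-Co1, from −0.17 to 0.039 for mt-Rnr1, from −0.23 to 0.0074 for mt-Rnr2, from −0.23 to 0.75 for mt-Ti, from −0.53 to 0.024 for mt-Tm, from −0.27 to 0.059 for mt-Tq and from −0.14 to 0.59 for mt-Tt. Low counts kept 14 tRNAs, mt-Nd3 and mt-Atp8 from being tested. Close neighbours (tRNAs) and near-complete nuclear copies (5 mRNAs) may also limit the counts, at any depth, but by how much was not tested.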
